A study of Mus musculus with 6 samples.

Results

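The genes described here are 46 genes of the cell division cycle and of DNA replication, from the D-type cyclins that open the cycle to the spindle proteins that close it. They were chosen by gene symbol from the count files, which list 40564 genes. All 46 were found and all 46 had enough reads to be tested, with 41 to 18622 reads per gene and library. RNA was sequenced in bulk from mouse BALF cells, the cells recovered by rinsing the lung through the airways (bronchoalveolar lavage fluid), and each of 3 genotypes had 2 libraries. The WT libraries carried no targeted deletion by their labels. Cis_KO stands for loss of CIS, the cytokine signalling inhibitor encoded by Cish, and Cis_Stat6_DKO for loss of CIS and of the transcription factor STAT6 together. All groups were untreated and shared one date, and strain, sex, age and mode of deletion are not stated by the labels. Whether replicates are separate animals is not labelled, so p-values measure only the spread between these samples, which may be technical.

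Cycling cells pass from G1 through DNA synthesis (S) and G2 to mitosis (M). Cyclin D with CDK4 or CDK6, then cyclin E with CDK2, release the E2F factors, which switch on the genes of DNA synthesis, and the MuvB complexes with B-MYB and FoxM1 switch on the mitotic genes later. Alveolar macrophages, the main cells of lavage fluid in an untreated lung, maintain their numbers largely by dividing in place.

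Read counts summed to 50762354 to 65937118 per library. Cish, the targeted gene, measured 46.2 and 56.2 CPM (read counts brought to one library total with TMM factors) in WT, against 4.34 and 3.52 with CIS lost and 1.72 and 5.04 with both lost. Stat6 stood at 221 to 264 CPM in the WT and Cis_KO libraries and at 31.6 and 25.5 in Cis_Stat6_DKO, so both targeted genes went with the labels. All 14 alveolar macrophage markers on a list chosen for this purpose were detected in every library, at a sum of 16398 to 42104 CPM. Cis_KO replicate 2 stood apart. It had reads on 15855 genes, against 19641 to 20431 in the other libraries. Its 7 erythroid markers summed to 38668 CPM, against 15.0 in Cis_KO replicate 1, 192 and 200.2 in WT and 42.7 and 353 in Cis_Stat6_DKO. Its 7 B cell markers summed to 61.4 CPM, against 0.188 to 1.34 elsewhere, and its 6 neutrophil markers to 387, against 30.4 to 191. Its 5 epithelial markers summed to 169.9 CPM, against 12.4 to 83.5. Not every marker went with these sums. Scgb1a1 alone held 141 CPM of the epithelial sum, while Epcam stood at 4.41, against 28.9 and 22.6 in WT and 3.36 in Cis_KO replicate 1. Of the neutrophil markers, Mmp8 was lowest in this library, at 11.9 CPM. Levels are therefore given library by library, and for genes with full statistics the fold changes that involve Cis_KO are also given without this library. A fit that leaves out a Cis_KO library, whichever it is, rests on the other alone, with a spread assumed from the other groups. Calls and adjusted p-values from such fits therefore measure no spread within Cis_KO.

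Promoter sequences show which letters the S phase and mitotic members carry around their start. RefSeq windows of GRCm38.p6, the assembly that mm10 corresponds to, run from 250 bases before to 50 bases after each annotated start and were found for 35 of the 46 members. They were searched on both strands for E2F-type sites (TTTCCCGC, TTTCGCGC, TTTGCCGC or TTTGGCGC), for the cell cycle homology region or CHR that MuvB binds (TTTGAA or TTCGAA), and for the CCAAT box bound by NF-Y. No E2F string holds a CHR string, and TTCGAA reads alike on both strands. The runs below were picked because they hold such matches in 3 genes of the helicase, in Cdk1 and in Mki67. Runs are written 5′ to 3′ on the strand of the gene, with the letters of the chosen match in capitals.
Mcm5, chr8:75109345-75109374, plus strand: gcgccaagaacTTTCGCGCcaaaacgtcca
Mcm6, chr1:128359797-128359826, minus strand: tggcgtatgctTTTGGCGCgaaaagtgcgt
Mcm6, chr1:128359734-128359763, minus strand: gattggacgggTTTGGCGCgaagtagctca
Mcm7, chr5:138172030-138172059, minus strand: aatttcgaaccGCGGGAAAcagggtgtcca
Cdk1, chr10:69353025-69353054, minus strand: tttccgctcccTTTCGCGCtctgcgctccc
Mki67, chr7:135716479-135716506, minus strand: tagcgccagaaTTTGAAccgccgttttg
In GENCODE M21 all of these runs lie outside their gene except that of Mcm7, which falls in an exon of another of its transcripts. The Mcm7 match reads on the opposite strand. In Mcm5, and in the Mcm6 run farther from the start, a second E2F match on the opposite strand overlaps the one shown. Further matches are left in small letters. The Mcm7 run also holds the CHR string TTCGAA, and the Mcm6 run nearer the start holds a CCAAT box on the opposite strand, read as ATTGG.

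E2F letters occurred in 4 of the 6 windows of Mcm2, Mcm3, Mcm5, Mcm6 and Mcm7, which is 66.7%, and in 15.8% of the 38 windows of all members, against 2.26% of the 32851 windows in the table. The spindle and kinetochore genes had E2F letters in 0 of 8 windows and CHR letters in 6 of 8, against 19.2% of all windows with CHR letters. CHR letters were not limited to mitotic genes. They also stood in 2 of the 6 Mcm windows, or 33.3%, and in 39.5% of all member windows. CCAAT stood in all 6 windows of the Mcm genes and in 71.1% of member windows, against 37.4% of all windows. These counts cover the whole window, so some matches lie after the start. Both E2F matches of Mcm3 do, as do the only CHR matches of Bub1 and Cenpf. These are descriptions of letters and not of bound sites.

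In WT the members ranged over levels from 0.23 to 63.6 FPKM (read counts scaled by gene length and by library total, as deposited, mean of 2 libraries). Pcna, the sliding clamp that holds DNA polymerase on its template, was highest at 61.6 and 65.5 FPKM. Cdkn1a, which encodes the CDK inhibitor p21, followed at 40.9 and 43.1 FPKM, then Mcm3 at 32.7 and 32.3, Cdk4 at 25.4 and 24.1 and Mcm7 at 21.3 and 21.6. Subunits of the MCM helicase thus filled 5 of the 8 highest places, with Mcm5, Mcm6 and Mcm4 at 18.0, 17.0 and 15.9 FPKM. The long kinetochore genes Cenpe and Cenpf were near the bottom of the order at 0.64 and 0.435 FPKM, and Ccnd1 was last at 0.34 and 0.12. Of the 3 D-type cyclins, Ccnd3 at 12.2 and Ccnd2 at 9.17 FPKM were far above Ccnd1.

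**Figure D1:**
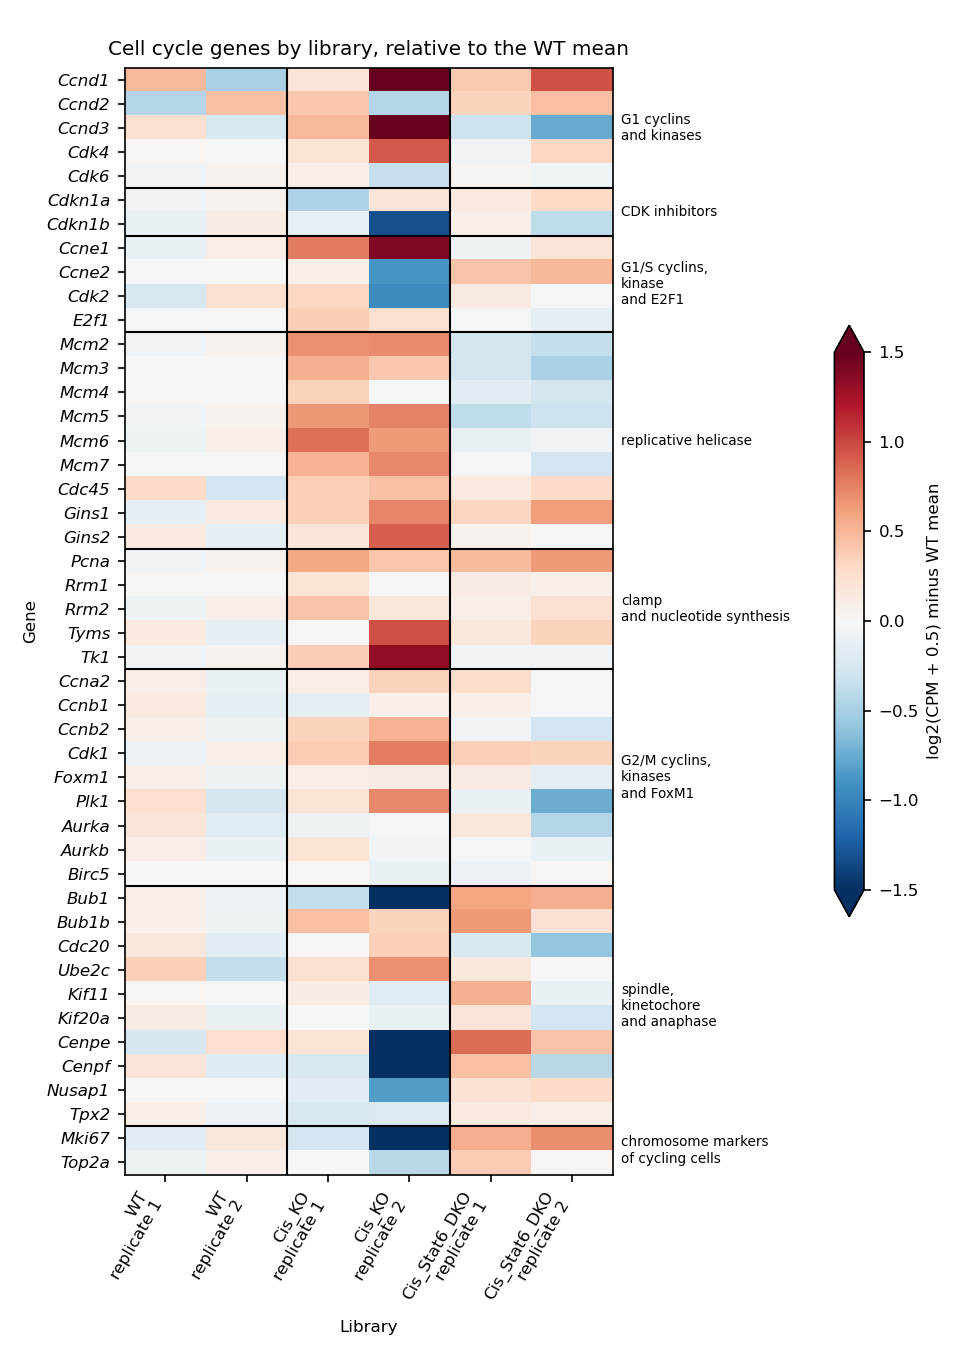
Each row is 1 of the 46 genes, grouped by role, and each column 1 library. Colour gives log2(CPM + 0.5) minus the WT mean, capped at 1.5 in either direction. The Mcm rows are red in both Cis_KO columns, apart from Mcm4 in replicate 2, while Bub1, Cenpe, Cenpf and Mki67 are deep blue in Cis_KO replicate 2.

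Cis_KO was compared with WT to see which genes differ without CIS. Helicase genes had the higher level in Cis_KO, with Mcm2, Mcm5, Mcm6 and Mcm7 at 1.55 to 1.66 times the WT mean. Genes of G2 and mitosis went both ways. Bub1, Cenpf, Nusap1, Tpx2 and Mki67 were lower in both Cis_KO libraries than in both WT libraries, and Ccnb2, Cdk1, Foxm1 and Bub1b were higher. No member passed the adjusted threshold of 0.05 in edgeR's quasi-likelihood test, against 0.274% of the 16765 genes tested, 0.119% higher and 0.155% lower. At an unadjusted p under 0.05 there were 10 members higher, against 5.51% of tested genes, and 0 lower, against 5.59%. The higher ones were Ccnd3, Ccne1, Mcm2, Mcm3, Mcm5, Mcm6, Mcm7, Pcna, Tk1 and Cdk1. The libraries of the 2 genotypes did not overlap for 19 members higher in Cis_KO, against 21.4% of tested genes, and for 6 lower, against 25.9%. The median log2 fold change was 0.21 over the members and -0.05 over all tested genes. DESeq2 called 4 members higher (Ccne1, Mcm2, Mcm5 and Mcm6), against 1.43% of its genes, and 0 lower, against 2.01%, and limma-voom called 0. Without Cis_KO replicate 1, which leaves replicate 2 alone with a spread assumed from the other groups, edgeR called 20 members, 12 higher, against 11.3% of the genes in that fit, and 8 lower, against 17.4%. Without Cis_KO replicate 2 it called 0, against 0.395% higher and 0.623% lower.

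Cis_Stat6_DKO was next compared with Cis_KO, to see which genes differ when STAT6 is lost as well; this comparison and the one above share the Cis_KO libraries. Mcm2 and Mcm5 in the double knockout stood at 0.493 and 0.483 times their Cis_KO mean, and Bub1 and Mki67 at 3.06 and 2.98 times. edgeR called no member, against 0.358% of tested genes, 0.239% higher and 0.119% lower, and the smallest adjusted p was 0.0758, for Mcm5. At an unadjusted p under 0.05 there were 3 members higher (Bub1, Nusap1 and Mki67), against 9.29% of tested genes, and 11 lower, against 8.99%. The libraries did not overlap for 7 members higher, against 27.9%, and 17 lower, against 22.5%. The median log2 fold change was -0.11, against 0.05 for all tested genes. DESeq2 called 2 members higher (Bub1 and Mki67), against 5.18% of its genes, and 7 lower (Ccnd3, Ccne1, Mcm2, Mcm3, Mcm5, Mcm6 and Mcm7), against 4.65%, while limma-voom called 0. Without Cis_KO replicate 1 edgeR called 23 members, 9 higher, against 19.2% of the genes in that fit, and 14 lower, against 13%. Without Cis_KO replicate 2 it called 0 higher, against 1.87%, and 4 lower (Mcm2, Mcm3, Mcm5 and Mcm6), against 0.812%.

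The double knockout against WT asks whether loss of both genes leaves the cycle genes at other levels than in WT. edgeR called no member, against 0.131% of tested genes, 0.0656% in each direction. At an unadjusted p under 0.05 there was 1 member, Pcna, higher, against 3.06% of tested genes, and 0 lower, against 2.3%. The libraries did not overlap for 14 members higher, against 23.3%, and 7 lower, against 23.5%, and the median log2 fold change was 0.05 over the members and -0.00 over all genes. DESeq2 called 0 members, against 1.21% of its genes higher and 0.759% lower, limma-voom called 0, and limma-voom with library quality weights called Pcna.

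**Figure D2:**
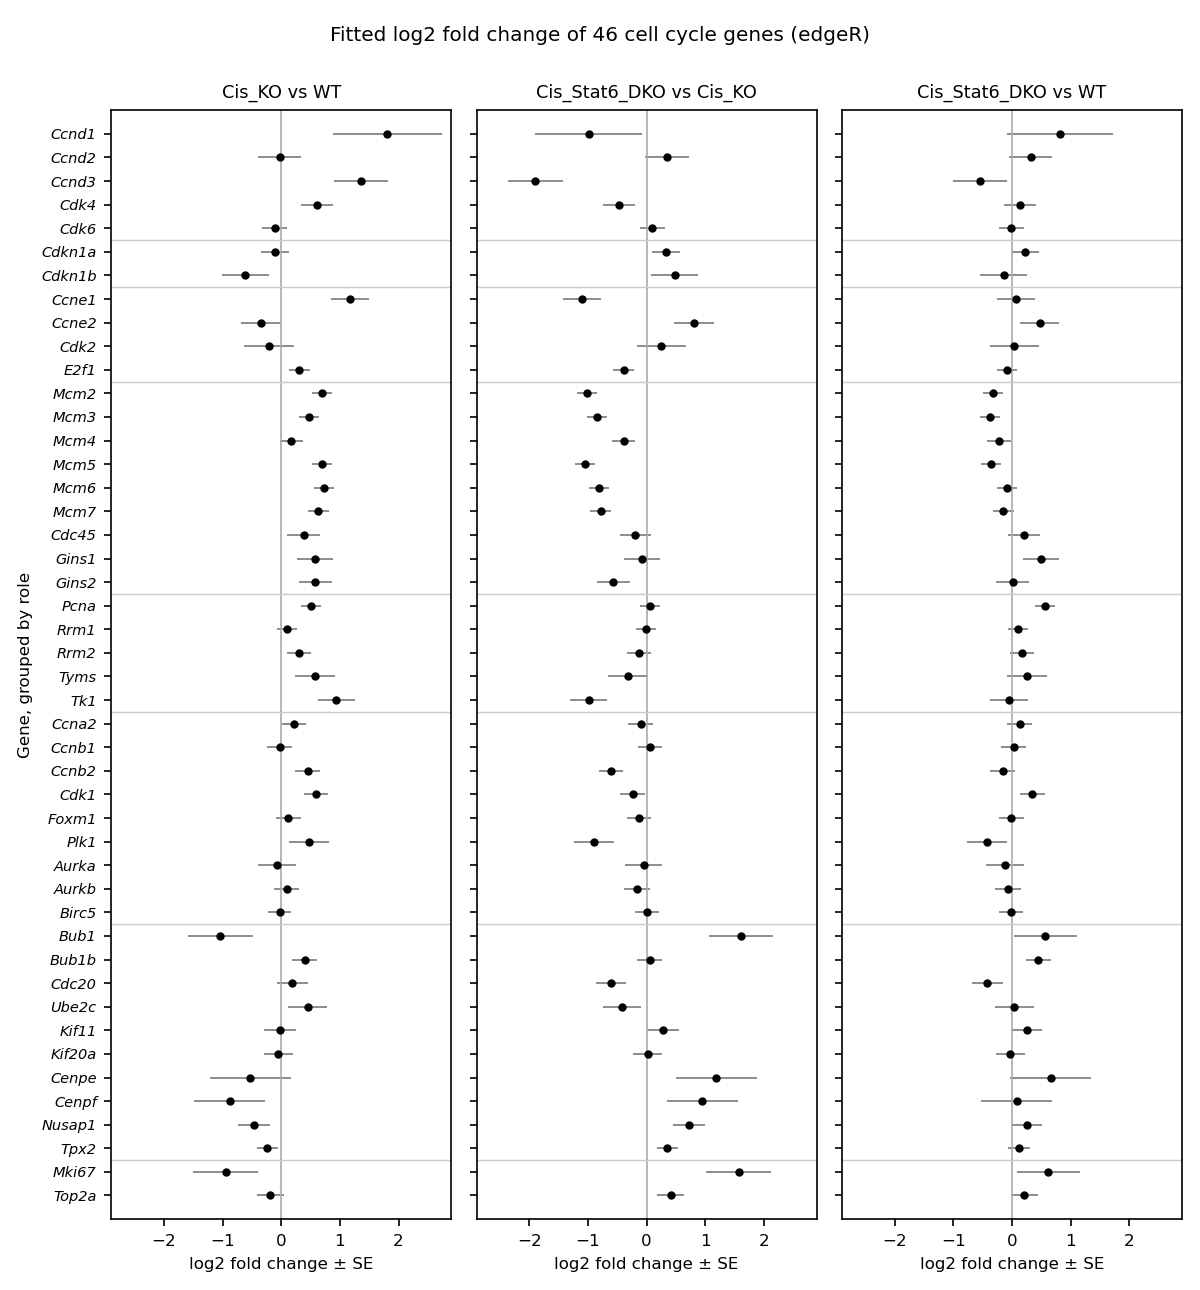
Points give edgeR's log2 fold change of each of the 46 genes in the 3 comparisons and bars its standard error, with genes grouped by role. All 9 helicase genes lie right of 0 in Cis_KO against WT and left of 0 in Cis_Stat6_DKO against Cis_KO, which share the Cis_KO libraries, with the long bars on Ccnd1, Cenpe, Cenpf, Bub1 and Mki67.

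D-type cyclins bind CDK4 and CDK6 and carry mitogen signals into the cycle. Ccnd3 (ENSMUSG00000034165, chr17:47505051-47599689) gave 132 and 94.9 CPM in the WT pair, 157 and 425 with CIS lost and 90.2 and 65.9 with both lost. Both Cis_KO libraries lay above the other 4, and replicate 2 lay far above replicate 1. The log2 fold change of Ccnd3 between Cis_Stat6_DKO and Cis_KO was -1.90 ± 0.47 (SE, n = 2 per group) (edgeR adjusted p = 0.159). It was -1.01 (adjusted p = 0.0852) without Cis_KO replicate 2 and -2.43 (adjusted p = 0.00121) without replicate 1, and the adjusted p ran from 3.01e-11 to 0.73 over all 18 alternatives tried for the gene. Bysl, which overlaps Ccnd3 on the other strand, stood at 56.7 CPM in Cis_KO replicate 2 and 24.8 to 33.2 elsewhere, and whether the counting used strand is not given.

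The remaining D-type cyclins had no such order. Ccnd2, the second one expressed in these cells, had 64.7 and 119 CPM in WT, then 116 and 64.4 in the Cis_KO libraries and 110.4 and 119.8 in the double knockout libraries, so that within WT and within Cis_KO the libraries were nearly 2-fold apart. Ccnd1 measured 1.67 and 0.599 CPM in the WT libraries, 1.27 and 6.71 in those of Cis_KO and 1.52 and 2.49 in the double knockout. Its high value was a single library. Cdk4, their kinase partner, gave 87.1 and 83.7 CPM in the WT pair, 98.5 and 162 with CIS lost and 82.2 and 106 with both lost. In Cis_KO against WT the log2 fold change of Cdk4 was 0.61 ± 0.27 (adjusted p = 0.454). It was 0.21 without Cis_KO replicate 2 and 0.91 without replicate 1 (adjusted p = 0.803 and 0.0101, and 0.0101 to 0.971 over the alternatives). Cdk6, the other partner, ranged from 56.1 to 76.8 CPM over the 6 libraries.

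The CDK inhibitors p21 and p27 restrain these kinases. Cdkn1a (p21) had 153 and 164 CPM in WT, then 115 and 179 in the Cis_KO libraries and 175 and 195 in the double knockout libraries. The Cis_KO libraries lay on either side of WT, and both double knockout libraries lay above WT. Its log2 fold change between Cis_Stat6_DKO and Cis_KO was 0.33 ± 0.24 (edgeR adjusted p = 0.476), 0.67 without Cis_KO replicate 2 and 0.06 without replicate 1 (adjusted p = 0.0797 and 0.786, and 0.0797 to 0.812 over the alternatives). Cdkn1b (p27) measured 34.7 and 40.9 CPM in the WT libraries, 34.5 and 14.8 in those of Cis_KO and 39.9 and 28.8 in the double knockout. The low value was that of Cis_KO replicate 2, while replicate 1 was level with WT replicate 1. The log2 fold change in Cis_KO against WT was -0.61 ± 0.40 (adjusted p = 0.535). It was -0.13 without Cis_KO replicate 2 and -1.37 without replicate 1 (adjusted p = 0.934 and 0.00852, and 0.00852 to 0.971 over the alternatives).

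Cyclin E with CDK2 starts DNA synthesis. Ccne1 (ENSMUSG00000002068, chr7:38097984-38107534) gave 6.02 and 7.00 CPM in the WT pair, 11.5 and 17.8 with CIS lost and 6.13 and 7.51 with both lost. Both Cis_KO libraries lay above the other 4, which lay close together. The log2 fold change in Cis_KO against WT was 1.17 ± 0.33 (adjusted p = 0.373 in edgeR and 0.0415 in DESeq2). Without Cis_KO replicate 2 it was 0.82 and without replicate 1 it was 1.43 (adjusted p = 0.351 and 0.00693, and 0.00693 to 0.971 over the alternatives). Ccne2, which encodes the second E-type cyclin, did not share this order, with 14.6 and 14.8 CPM in WT, then 15.5 and 7.76 in the Cis_KO libraries and 19.9 and 20.9 in the double knockout libraries. For Ccne2 the log2 fold change between Cis_Stat6_DKO and Cis_KO was 0.81 ± 0.34 (adjusted p = 0.279). It was 0.38 without Cis_KO replicate 2 and 1.40 without replicate 1 (adjusted p = 0.362 and 0.00329, and 0.00329 to 0.73 over the alternatives). Cdk2 ranged from 12.0 CPM in Cis_KO replicate 2 to 29.7 in replicate 1, the extremes of the 6 libraries. E2f1, the factor that drives S phase genes, had 47.6 and 48.9 CPM in WT, then 62.6 and 57.2 in the Cis_KO libraries and 47.4 and 44.0 in the double knockout libraries, with both Cis_KO libraries above the other 4. The fitted difference of E2f1 from WT was 0.38 without Cis_KO replicate 2 and 0.23 without replicate 1.

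The MCM proteins 2 to 7 form the ring that unwinds DNA at the fork, and Cdc45 and the GINS subunits turn it on. Mcm5 (ENSMUSG00000005410, chr8:75109569-75128439) measured 73.8 and 78.9 CPM in the WT libraries, 120.4 and 128 in those of Cis_KO and 58.5 and 61.3 in the double knockout. Mcm2 (ENSMUSG00000002870, chr6:88883474-88898780) gave 54.9 and 59.5 CPM in the WT pair, 92.6 and 93.4 with CIS lost and 47.2 and 44.5 with both lost. In both genes the replicates lay close together, and the genotypes ran in the order Cis_KO, WT, double knockout without overlap. The log2 fold change between Cis_Stat6_DKO and Cis_KO was -1.05 ± 0.17 for Mcm5 (edgeR adjusted p = 0.0758), and -1.02 ± 0.17 for Mcm2, with 0.0864. The adjusted p in DESeq2 was 5.60e-06 for Mcm5 and 1.51e-05 for Mcm2. Each fit that leaves out a Cis_KO library rests on the other alone, so only its fold changes are given here. With replicate 1 left out they were -1.08 for Mcm5 and -1.02 for Mcm2, and with replicate 2 left out -1.02 for each gene. Over all 18 alternatives the adjusted p ran from 5.60e-06 to 0.575 for Mcm5 and from 1.51e-05 to 0.712 for Mcm2.

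Mcm3 had 129.7 and 129 CPM in WT, then 188 and 172 in the Cis_KO libraries and 107 and 92.2 in the double knockout libraries. Mcm6 measured 79.7 and 88.9 CPM in the WT libraries, 149.5 and 131 in those of Cis_KO and 78.2 and 81.4 in the double knockout. Mcm7 gave 99.5 and 102 CPM in the WT pair, 145 and 167 with CIS lost and 99.6 and 82.2 with both lost. In these 3 genes too both Cis_KO libraries lay above the other 4, while for Mcm6 and Mcm7 WT and the double knockout overlapped. Leaving out Cis_KO replicate 2, the log2 fold change between Cis_Stat6_DKO and Cis_KO was -0.93 for Mcm3, -0.92 for Mcm6 and -0.69 for Mcm7, and without replicate 1 it was -0.78, -0.70 and -0.87. Mcm4 was the exception among the MCM genes, with 61.6 and 59.8 CPM in WT, then 77.3 and 59.5 in the Cis_KO libraries and 54.0 and 50.2 in the double knockout libraries. Mcm7 overlaps Cops6 on the other strand, which stood at 163 CPM in Cis_KO replicate 2 and 67.6 to 84.0 elsewhere.

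Summed over the 6 MCM genes, the WT libraries had 499 and 519 CPM, the Cis_KO libraries 773 and 749.9 and the double knockout libraries 444 and 412. Both Cis_KO sums lay above all others and both double knockout sums below. In Cis_KO against WT the fitted log2 fold change was above 0 in 6 of 6, with a median of 0.67, and in Cis_Stat6_DKO against Cis_KO it was below 0 in 6 of 6, with a median of -0.83. With no library scaling those medians were 0.55 and -0.80, and with RLE size factors 0.68 and -0.85. Without Cis_KO replicate 2 they were 0.60 and -0.92, again with 6 of 6 on each side, and without replicate 1 they were 0.65 and -0.82, where Mcm4 in Cis_KO against WT went to -0.04. Over the whole helicase group of 9, including Cdc45, Gins1 and Gins2, the libraries did not overlap for 8 higher in Cis_KO than in WT, against 21.4% of all tested genes, and for 8 lower in the double knockout than in Cis_KO, against 22.5%. Gins2 stood at 49.4 CPM in Cis_KO replicate 2 and 23.8 to 29.9 elsewhere, so that its log2 fold change from WT, 0.88 without Cis_KO replicate 1, was 0.17 without replicate 2, and Cdc45 ranged from 9.38 to 15.9 CPM.

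**Figure D3:**
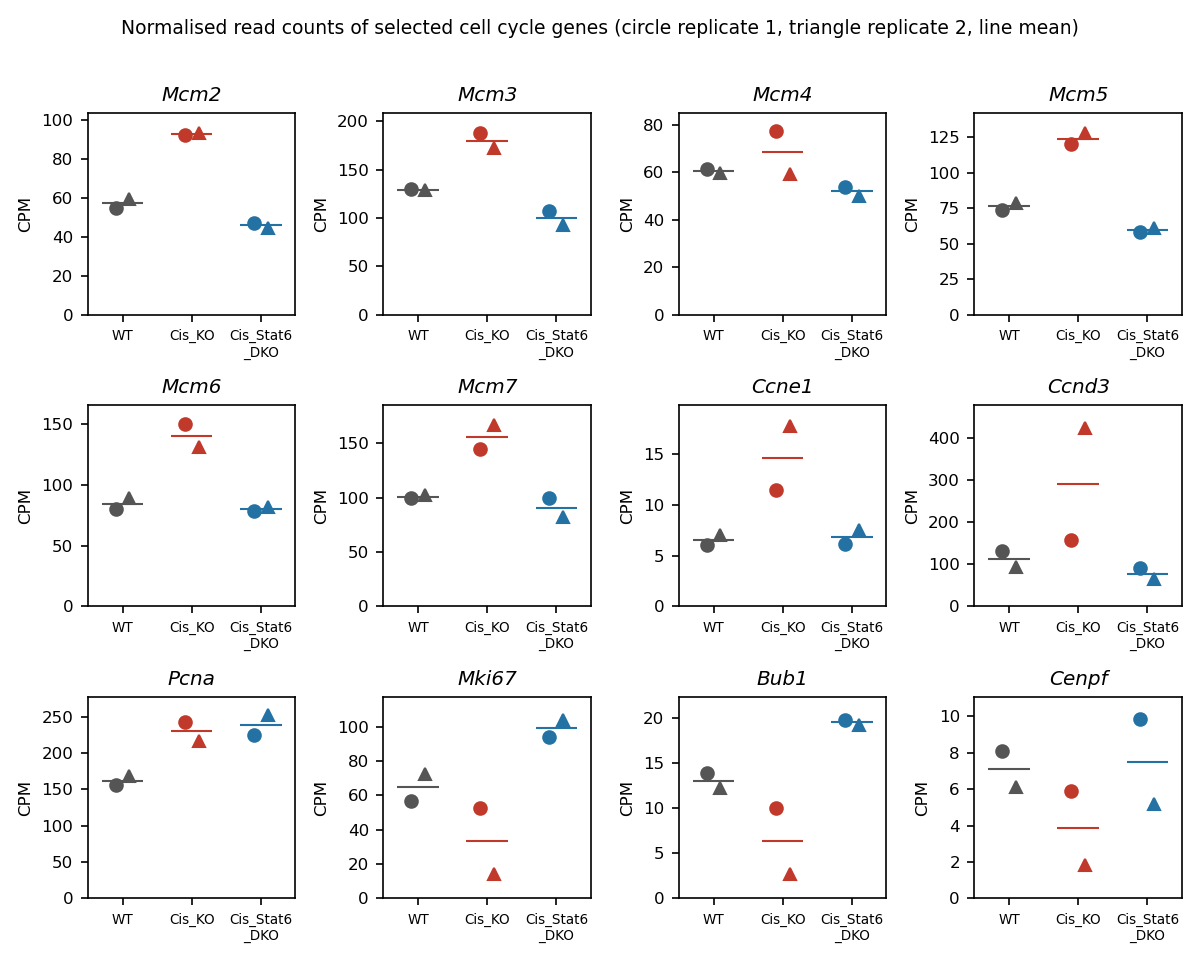
Panels show CPM (linear axis from 0) of 12 of the genes, with a circle for replicate 1, a triangle for replicate 2 and a line for the mean of each genotype. Mcm2, Mcm3, Mcm5, Mcm6 and Mcm7 have both Cis_KO points above the other 4, whereas the Cis_KO points of Ccnd3, Mki67, Bub1 and Cenpf lie far apart.

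The clamp and the enzymes of nucleotide supply followed the helicase only in part. Pcna (ENSMUSG00000027342, chr2:132249162-132253314) had 156 and 168 CPM in WT, then 243 and 217 in the Cis_KO libraries and 225 and 252 in the double knockout libraries. Both mutant genotypes lay above WT, and they overlapped each other. Pcna's log2 fold change between Cis_Stat6_DKO and WT was 0.56 ± 0.17 (adjusted p = 0.635 in edgeR and 0.0456 in limma-voom with quality weights, the lowest of the alternatives, which reached 1.0). Between Cis_Stat6_DKO and Cis_KO it was 0.05 ± 0.17 (adjusted p = 0.903), and -0.04 without Cis_KO replicate 2 and 0.14 without replicate 1. Pcna-ps2, a pseudogene by its name, held 30.5 to 58.0 CPM, and how reads that fit both were assigned is not given.

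Tk1, the thymidine salvage kinase of S phase cells, measured 23.2 and 25.2 CPM in the WT libraries, 31.3 and 61.7 in those of Cis_KO and 23.4 and 23.3 in the double knockout. Its log2 fold change between Cis_Stat6_DKO and Cis_KO was -0.99 ± 0.32 (edgeR adjusted p = 0.219). It was -0.43 without Cis_KO replicate 2 and -1.39 without replicate 1 (adjusted p = 0.257 and 0.0015, and 0.0015 to 0.73 over the alternatives). Both Cis_KO libraries lay above the other 4, with replicate 2 at about the doubled level of replicate 1. Tyms, which makes thymidylate, was at 32.9 CPM in Cis_KO replicate 2 and 15.0 to 21.1 elsewhere. The ribonucleotide reductase subunits Rrm1 and Rrm2 ranged only from 80.1 to 93.4 and from 31.5 to 45.0 CPM.

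Cyclin A and the B-type cyclins with CDK1 carry cells through G2 into mitosis. Cdk1 (ENSMUSG00000019942, chr10:69335146-69352938) gave 24.6 and 27.9 CPM in the WT pair, 34.2 and 44.8 with CIS lost and 33.7 and 33.2 with both lost. Its mutant libraries all lay above WT. The log2 fold change in Cis_KO against WT was 0.59 ± 0.21 (edgeR adjusted p = 0.437). It was 0.38 without Cis_KO replicate 2 and 0.76 without replicate 1 (adjusted p = 0.556 and 0.0152, and 0.0152 to 0.971 over the alternatives). Ccnb2, a B-type cyclin, had 21.3 and 19.0 CPM in WT, then 25.6 and 29.2 in the Cis_KO libraries and 19.6 and 16.4 in the double knockout libraries. From Cis_KO to Cis_Stat6_DKO the log2 fold change of Ccnb2 was -0.61 ± 0.21 (adjusted p = 0.232). It was -0.52 without Cis_KO replicate 2 and -0.69 without replicate 1 (adjusted p = 0.247 and 0.036, and 0.036 to 0.73 over the alternatives). Ccnb2 thus shared with the MCM genes that both Cis_KO libraries lay above the other 4, while Ccnb1, its close relative, overlapped across all genotypes at 23.9 to 29.4 CPM.

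Apart from Plk1, the other genes of this stage stayed within narrow ranges. Birc5, the survivin of the chromosomal passenger complex, ranged from 17.4 to 19.2 CPM, its partner kinase Aurkb from 17.2 to 21.4 and Foxm1 from 18.8 to 22.9. Ccna2 ranged from 40.6 to 55.6 and Aurka, the spindle pole kinase, from 7.92 to 12.5 CPM. Plk1, the kinase that drives mitotic entry and spindle formation, had the widest range of the group, from 8.99 CPM in Cis_Stat6_DKO replicate 2 to 25.7 in Cis_KO replicate 2. Both double knockout libraries of Plk1 lay below both Cis_KO libraries. It was among the members lower in that comparison at an unadjusted p under 0.05 in edgeR, and was not called.

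Spindle and kinetochore genes differed among themselves in their order over the libraries. Bub1 (ENSMUSG00000027379, chr2:127801122-127831865), a checkpoint kinase at the kinetochore, measured 13.9 and 12.2 CPM in the WT libraries, 9.96 and 2.74 in those of Cis_KO and 19.8 and 19.2 in the double knockout. The genotypes did not overlap, but the 2 Cis_KO libraries differed more from each other than Cis_KO replicate 1 did from WT. Its log2 fold change between Cis_Stat6_DKO and Cis_KO was 1.61 ± 0.55 (adjusted p = 0.229 in edgeR and 0.0367 in DESeq2). Leaving out Cis_KO replicate 2 gave 0.96 and leaving out replicate 1 gave 2.84 (adjusted p = 0.0659 and 9.28e-04, and 6.85e-04 to 0.73 over the alternatives). Nusap1, a microtubule-binding spindle protein, gave 26.7 and 27.0 CPM in the WT pair, 24.0 and 14.8 with CIS lost and 31.3 and 32.9 with both lost. From Cis_KO to Cis_Stat6_DKO the log2 fold change of Nusap1 was 0.72 ± 0.27 (adjusted p = 0.241). It was 0.41 without Cis_KO replicate 2 and 1.13 without replicate 1 (adjusted p = 0.282 and 0.00398, and 0.00398 to 0.73 over the alternatives). Tpx2, which activates Aurora A on the spindle, had a closer pair of Cis_KO values, at 33.6 and 34.0 CPM, against 42.1 and 37.4 in WT and 43.8 and 42.6 in Cis_Stat6_DKO.

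The kinetochore genes Cenpe and Cenpf had by far their lowest value in Cis_KO replicate 2. Cenpe stood at 1.42 CPM there and 4.81 to 10.8 in the other libraries, and Cenpf at 1.85 there and 5.16 to 9.84 elsewhere. For Cenpf the other Cis_KO library, at 5.88 CPM, also lay below both WT libraries. Cdc20, an activator of the anaphase-promoting complex, and Ube2c, a ubiquitin-conjugating enzyme that works with it, stood at 27.2 and 19.4 CPM in Cis_KO replicate 2, the highest of the 6 libraries in both genes. For Cdc20 the double knockout was lowest, at 17.9 and 13.8 CPM. The checkpoint gene Bub1b had 58.7 and 52.9 CPM in WT, then 76.5 and 70.2 in the Cis_KO libraries and 87.3 and 65.1 in the double knockout libraries, above WT in all 4 mutant libraries. The motor genes Kif11 and Kif20a ranged from 18.2 to 30.0 and from 17.0 to 24.1 CPM, with all genotypes overlapping.

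Ki-67 coats mitotic chromosomes and topoisomerase II alpha untangles them, and both serve as markers of cycling cells. Mki67 (ENSMUSG00000031004, chr7:135689784-135716361) measured 56.8 and 72.3 CPM in the WT libraries, 52.6 and 14.0 in those of Cis_KO and 94.1 and 104 in the double knockout. Cis_KO replicate 1 lay just under WT and replicate 2 far under it, and both double knockout libraries lay above all others. The log2 fold change between Cis_Stat6_DKO and Cis_KO was 1.57 ± 0.55 (adjusted p = 0.232 in edgeR and 0.0298 in DESeq2). Leaving out Cis_KO replicate 2 gave 0.91 and leaving out replicate 1 gave 2.83 (adjusted p = 0.0625 and 7.63e-04, and 3.11e-07 to 0.73 over the alternatives). Top2a gave 61.6 and 68.3 CPM in the WT pair, 65.1 and 48.4 with CIS lost and 84.3 and 66.3 with both lost. For Top2a the log2 fold change between Cis_Stat6_DKO and Cis_KO was 0.41 ± 0.23 (adjusted p = 0.374). It was 0.20 without Cis_KO replicate 2 and 0.65 without replicate 1 (adjusted p = 0.661 and 0.0443, and 0.0443 to 0.809 over the alternatives). The marker genes did not share the order of the MCM genes, and no Cis_KO library lay above both WT libraries in either. In RNA of a whole cell population, fewer cycling cells and less of each RNA per cycling cell cannot be told apart.

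Counted by library order, 13 of the 46 members had both Cis_KO libraries above all 4 others, which is 28.3%, against 14.3% of all tested genes. They were Ccnd3, Ccne1, E2f1, Mcm2, Mcm3, Mcm5, Mcm6, Mcm7, Cdc45, Gins2, Tk1, Ccnb2 and Cdk1, of which 11 belong to the role groups of G1 and DNA synthesis and Ccnb2 and Cdk1 to that of G2 and mitosis. Both Cis_KO libraries lay below all 4 others for 4 members, Bub1, Nusap1, Tpx2 and Mki67, which is 8.7%, against 16.8% of all tested genes. Of the 112 further genes described below, 28 (25%) had both Cis_KO libraries above all others and 16 (14.3%) below, and the 16 include the replication genes Orc2, Orc3, Orc5, Dbf4 and Pola1, named here after their values were seen. With Cis_KO replicate 1 alone, a count chosen after seeing the data, 20 members (43.5%) lay above the 4 other libraries, against 23.9% of all tested genes, and 5 (10.9%) below, against 23.6%. With replicate 2 alone 22 (47.8%) lay above, against 33.1%, and 14 (30.4%) below, against 40.3%.

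The spread within Cis_KO differed between members. On the log2 scale, replicate 2 minus replicate 1 was -2.26 for Cenpe, -1.91 for Mki67, -1.86 for Bub1 and -1.67 for Cenpf, and it was 2.41 for Ccnd1 and 1.44 for Ccnd3. Mcm2, Mcm5, Mcm3 and Mcm6, at 0.01, 0.09, -0.13 and -0.20, were among the members with little difference. In Cis_KO 6 members (13%) were more than 2-fold lower in replicate 2, against 13.7% of all tested genes with reads in both, and 2 (4.35%) more than 2-fold higher, against 14.6%. In WT 1 was lower and 0 higher by this measure, against 7.74% and 4.7%, and in Cis_Stat6_DKO 0 and 0, against 5.97% and 8.81%.

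Exon length moved with this difference. Over all tested genes the median of replicate 2 minus replicate 1 in Cis_KO went from 0.47 in log2 units in the class with the shortest exons (1 of 4 length classes) to 0.20, -0.09 and -0.37 in the next 3. The 23 members at or below the members' median length of 4246 nucleotides had a median of 0.09, and the 23 longer ones -0.20. Spearman's rho with length, a description across genes that share the same libraries, was -0.34 over the 46 members and -0.31 over 14080 genes in Cis_KO, 0.21 and 0.00 in WT, and -0.18 and -0.18 in Cis_Stat6_DKO. The part of exon length, and of the erythroid, B cell, neutrophil and epithelial markers, in the values of Cis_KO replicate 2 was not tested. This holds for Mki67, Bub1, Cenpe and Cenpf, which were lowest there, and for Ccnd1, Ccnd3, Cdk4 and Tk1, which were highest there.

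**Figure D4:**
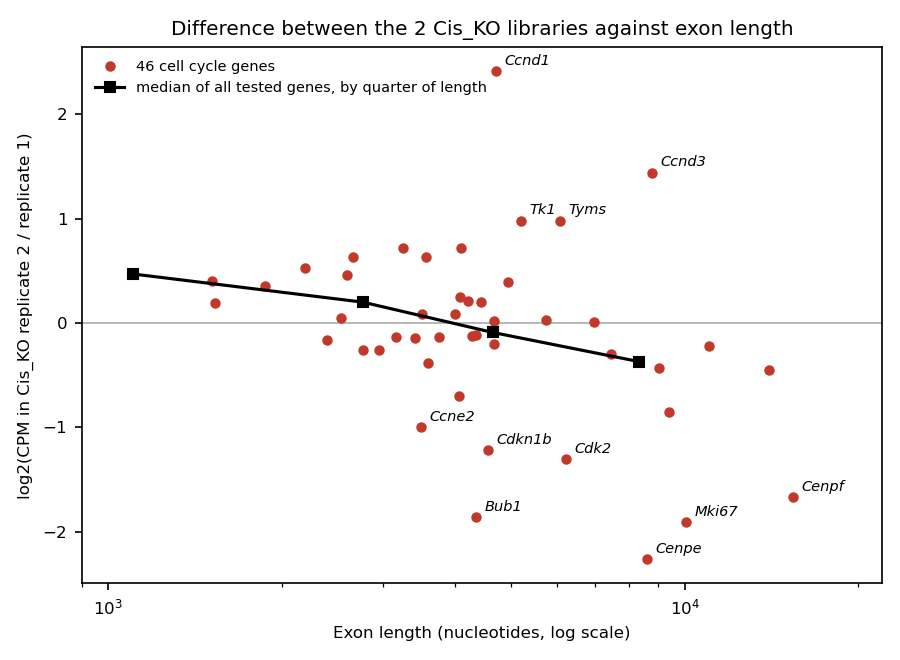
Each point is 1 of the 46 genes, with exon length on a log axis (nucleotides) and log2 of CPM in Cis_KO replicate 2 over replicate 1 on the vertical axis. Black squares give the median of all tested genes in 4 classes of length, from 0.47 to -0.37. Cenpe, Mki67, Bub1 and Cenpf lie lowest and Ccnd1 and Ccnd3 highest.

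A list of 112 further genes of replication, mitosis and cycle control, none of them a member, was read in the same fit. All 112 were tested and edgeR called 0 in each comparison. At an unadjusted p under 0.05, 9 were higher and 4 lower in Cis_KO against WT, or 8.04% and 3.57%, against 5.51% and 5.59% of all tested genes. In Cis_Stat6_DKO against Cis_KO 9 were higher and 15 lower, or 8.04% and 13.4%, against 9.29% and 8.99%, and in Cis_Stat6_DKO against WT 2 and 0, or 1.79% and 0%, against 3.06% and 2.3%. DESeq2 called 3, 8 and 0 in the 3 comparisons, or 2.68%, 7.14% and 0%, against 3.45%, 9.83% and 1.97% of its genes, and limma-voom called 0 in each. Without Cis_KO replicate 1 edgeR called 39 in the first comparison and 42 in the second, or 34.8% and 37.5%, against 28.8% and 32.2% of all genes in that fit, and without replicate 2 it called 0 and 1, against 1.02% and 2.68%.

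Polymerase and fork genes on that list mostly had their higher values in Cis_KO. Of 29 such genes, 23 had a fitted fold change above 0 in Cis_KO against WT and 19 did not overlap, against 21.4% of all tested genes, and 23 were below 0 in Cis_Stat6_DKO against Cis_KO, where 15 did not overlap, against 22.5%. With Cis_KO replicate 2 left out, the counts above and below 0 were 25 and 24, and without replicate 1 they were 21 and 18. Pold1, the catalytic subunit of DNA polymerase delta, had the smallest p in both comparisons, with 21.1 and 20.4 CPM in the WT libraries, 38.9 and 60.2 with CIS lost and 17.8 and 16.5 with both lost. Both Cis_KO libraries lay above the other 4. Pold1 had a log2 fold change of 1.26 ± 0.25 in Cis_KO against WT (adjusted p = 0.183), and of -1.53 ± 0.26 in Cis_Stat6_DKO against Cis_KO, with 0.0864. Without Cis_KO replicate 2 these were 0.91 and -1.19 (adjusted p = 0.0674 and 0.016), and without replicate 1 they were 1.52 and -1.80 (adjusted p = 0.00183 and 0.00102). Over the 18 alternatives the adjusted p of Pold1 ran from 0.00131 to 0.971 and from 1.39e-05 to 0.651. Chaf1b, a subunit of the chromatin assembly factor that follows the fork, was next in Cis_KO against WT, with 42.0 and 65.3 CPM against 23.6 and 26.3, at 1.10 ± 0.25 (adjusted p = 0.262). The difference for Chaf1b was 0.75 without Cis_KO replicate 2 and 1.37 without replicate 1 (adjusted p = 0.115 and 0.00209, and 0.00209 to 0.971 over the alternatives). Pold2, another subunit of polymerase delta, was next in Cis_Stat6_DKO against Cis_KO, with 21.7 and 23.6 CPM against 43.7 and 68.9, at -1.31 ± 0.28 (adjusted p = 0.13). For Pold2 it was -0.96 without Cis_KO replicate 2 and -1.60 without replicate 1 (adjusted p = 0.0647 and 0.00208, and 1.72e-04 to 0.73 over the alternatives). In all 3 genes Cis_KO replicate 2 had the highest value. In Cis_Stat6_DKO against WT the smallest p values were those of Orc6, of the origin recognition complex, at 0.71 ± 0.24 (adjusted p = 0.733), and of the kinetochore gene Spc25 at 0.55 ± 0.22 with 0.916.

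The other groups on the list leaned less to one side. Of 14 genes of origin recognition and licensing, 7 were above and 7 below 0 in Cis_KO against WT, as were 21 and 20 of 41 genes of mitosis and cytokinesis. Of 28 cycle regulators 11 were above and 17 below 0. The mitotic genes were above 0 in 25 of 41 in Cis_Stat6_DKO against Cis_KO, with a median of 0.12, whereas the polymerase and fork genes had a median of -0.25.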

How the data were processed

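BALF cell RNA of 6 mouse libraries, 2 each of WT, Cis_KO and Cis_Stat6_DKO, was analysed as deposited. The authors deposited raw read counts per gene, which per the file headers are not normalised. FPKM values in the same files, per the file headers, are the authors' counts divided by gene length and library total. The submitters' processing notes name mm10, and no source used here gives the aligner, the counting tool or the use of strand, so overlapping genes are uncertain.

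All 40564 genes entered edgeR 4.0.16 (R 4.3.3) with TMM factors of 0.863 to 1.08. filterByExpr kept 16765 genes, and the 6 libraries were fitted with genotype alone and tested with the quasi-likelihood F test, two-sided, with Benjamini-Hochberg adjustment over all of them and a threshold of 0.05 on 3 residual degrees of freedom. Standard errors are the log2 fold change over the square root of F. The common coefficient of variation was 50.3% over all tested genes. Exon lengths came from GENCODE M21, whose positions 41 of the 46 members share, and promoter windows from RefSeq. The alternatives were DESeq2 1.42.0, limma 3.58.1 (voom, also with quality weights, and limma-trend on log2 FPKM), other scalings and filters, only the groups compared, a block and each library left out. The test was tried on simulated data.

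Full statistics are given for the 2 members of each role group with the smallest unadjusted p in any comparison, and for the 2 such genes of the longer list in each comparison. The 46 members, the 112 further genes and the marker lists were chosen with earlier results of these data known.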

Additional observations from a re-analysis of the deposited data

How the results depend on the processing

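Over the 16 named gene differences, 259 alternative values kept direction and side of the threshold, 29 kept direction and passed it, and 0 reversed. These differences were named for a small p in these same data, which favours a steady direction. Others did reverse. From Cis_KO to Cis_Stat6_DKO, Cdk2 had 1.06 without Cis_KO replicate 1 and -0.26 without replicate 2, and Tyms -0.72 and 0.24. In Cis_KO against WT the count of members called, 0, became 4 in DESeq2, 3 with no filter and 0 to 20 with each library left out, and that of the 112 further genes 3, 6 and 0 to 39, where those settings called 546, 1021 and 3 to 5349 of all genes. In Cis_Stat6_DKO against Cis_KO the members called were 9 in DESeq2, 9 with no filter and 0 to 23 with each library left out, and the further genes 8, 10 and 0 to 42, against 1557, 1840 and 4 to 5999 of all genes. The highest counts were those without Cis_KO replicate 1, which leaves only the library that stood apart, and the cause was not tested. In Cis_Stat6_DKO against WT limma-voom with quality weights called 1 member, among 470 genes. The members' median log2 fold change in Cis_KO against WT, 0.21, was 0.22 with RLE size factors, 0.09 with no scaling (where that of all genes went from -0.05 to -0.15), 0.19 with no filter, 0.23 with at least 1 CPM in 2 libraries, 0.12 to 0.25 with each library left out, and 0.07, 0.08 and 0.09 on log2 FPKM with a pseudocount of 1, of 0.1, and of 1 with no filter. In Cis_Stat6_DKO against Cis_KO that median, -0.11, was -0.22 to -0.08 with each library left out, -0.06 with no scaling and -0.05 to -0.04 on log2 FPKM. Against WT the double knockout's median, 0.05, was -0.02 with no scaling and -0.04 to 0.12 with each library left out. Correlations of same-numbered deviations over the tested genes were -0.0317, -0.0653 and 0.0133. With 2 libraries per group these cannot show whether libraries of the same number belong together, and the labels do not say. A replicate block left 0 members called in each comparison, with medians of 0.22, -0.12 and 0.04. With 2 libraries per group, the number of libraries limits the precision.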
